A study of Mus musculus with 20 samples.

Results

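Organic osmolyte carriers and the osmotic transcription factor Nfat5 were followed in a small forebrain region, the bed nucleus of the stria terminalis in its anterodorsal part (adBNST), of control and chronically stressed mice. The 5 genes are Slc5a3, Slc6a6, Slc38a2, Akr1b3 and Nfat5. Slc5a3 was chosen by its measured difference between male and female controls, while the rule gives no reason for the others. Of the 5, 4 had a row among the 12988 genes of the count table, and Akr1b3 was not analysed here. These 4 passed the filter on low counts, as did every gene of the table.

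Mice, whose strain is not given in the sources used here, were 7 to 9 weeks old at the start and fell into 4 groups of 15: female control, female stressed, male control and male stressed. Stressed mice went through chronic variable mild stress (CVMS), a 6-week schedule of changing minor stressors, and brain tissue was taken under ketamine 1 hour after the last one, wet bedding. Controls shared the anesthesia and the dissection. Each library pooled adBNST of 3 mice, so that each group has 5 libraries of the 20, and mRNA was sequenced with a kit that keeps the strand. Replicate libraries are separate pools of mice, so the spread between libraries is that of pools and not of single mice.

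Cells in hypertonic surroundings shrink, and they regain volume by taking up or making small neutral solutes, the organic osmolytes. Nfat5 is the transcription factor that drives many of these genes when tonicity rises. Slc5a3 carries myo-inositol into the cell with sodium, Slc6a6 carries taurine, Slc38a2 carries small neutral amino acids such as glutamine and alanine, and Akr1b3 is aldose reductase, which makes sorbitol from glucose. Myo-inositol and taurine are abundant in brain tissue.

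The Slc5a3 locus needs care, because Slc5a3 lies inside the gene for Mrps6, a mitochondrial ribosomal protein, on the same strand. Slc5a3 (ENSMUSG00000089774) spans chr16:92058322-92087473 and Mrps6 (ENSMUSG00000039680) chr16:92058270-92112227, both on the plus strand of GRCm38 in GENCODE M21. The annotated starts lie 52 bases apart in GENCODE and 14 bases apart in RefSeq. The stretch before both starts, chr16:92058072-92058269 on the plus strand (RefSeq, GRCm38.p6), is shown because it is upstream sequence for either gene. Capitals mark the 184 of its 198 bases that also lie within 250 bases before the RefSeq start of Mrps6.
Slc5a3 and Mrps6 upstream: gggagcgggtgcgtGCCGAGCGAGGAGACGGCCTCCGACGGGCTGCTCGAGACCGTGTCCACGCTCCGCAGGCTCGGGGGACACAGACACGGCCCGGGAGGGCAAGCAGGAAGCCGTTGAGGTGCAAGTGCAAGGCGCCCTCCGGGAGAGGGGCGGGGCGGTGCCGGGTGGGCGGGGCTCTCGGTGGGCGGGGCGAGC

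The stretch is 75.8% G and C, against a median of 52.4% in the 250 bases before the starts of the RefSeq table. The hexamer TGGAAA, with which the Nfat5 binding element begins, was searched on both strands of the 250 bases before each start. It was found in 18.6% of 32851 windows, and in none of the windows of Slc5a3, Mrps6, Slc38a2 and Nfat5, which says only that these letters are not in those windows. Slc6a6 and Akr1b3 were not among the promoters of that table.

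Of the exonic bases of Slc5a3, 1.46% (159 of 10913) are shared on the same strand with Mrps6 or Gm49711, against 19.9% of the 1533 exonic bases of Mrps6. The exons of Slc38a2, on chromosome 15, and of Nfat5, on chromosome 8, overlap no other gene. Those of Slc6a6, on chromosome 6, share 117 of 8457 bases with the antisense Gm44981. Whether counting used the strand is not given in the sources used here, so reads from those 117 bases cannot be assigned to one gene.

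Library totals ran from 2.71 M (mega) to 33.6 M counts, with a median of 15.6 M. All 40 pairs of libraries within groups differed beyond counting error. The 12 markers of adBNST neurons were measured in every library with no count of 0, at a summed level of 2901 to 3460 CPM (counts scaled to a common library size, with TMM factors). The 11 markers of striatal neurons, a neighbouring cell type, were likewise all present. Their sum was lowest on average in male controls, at 1882 to 2404 CPM, against 2050 to 3765 in female controls, 2720 to 4271 with stress in males and 1990 to 4198 with stress in females. In bulk tissue, fewer cells of a type and less RNA per cell cannot be told apart.

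Slc5a3 was most abundant in male controls. For replicates 1 to 5 it measured 131, 132, 121, 109 and 104 CPM in male controls. Female controls measured 84.8, 84.1, 87.1, 88.8 and 85.5 CPM. Each male control library was above each of the other 15 libraries. Stressed females measured 87.4, 91.7, 76.1, 82.8 and 78.9 CPM, and stressed males 92.8, 81.2, 91.4, 101 and 100.2 CPM. These groups overlap each other and the female controls.

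By group mean the order was male control (119 ± 12.9 CPM, SD, n = 5), male stressed (93.3 ± 7.98), female control (86.1 ± 1.89) and female stressed (83.4 ± 6.27). Neighbours in this order after the first differed by less than the larger of their SDs. The female controls were the tightest group, with a coefficient of variation of 2.20% over libraries of 2.71 M to 24.5 M counts, against 10.8% in male controls. Female control 4 held 236 counts of Slc5a3, for which counting error alone is larger than 2.20%, so no stability is read from this closeness.

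**Figure D1:**
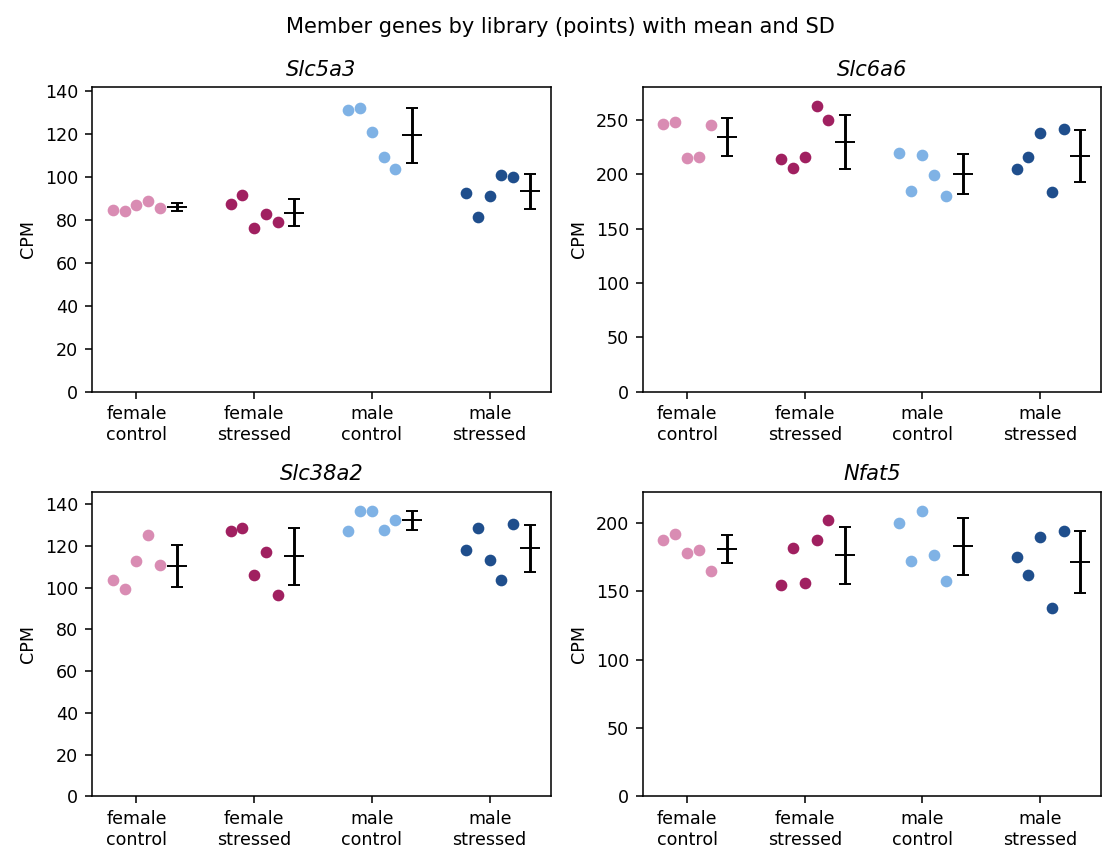
Level of Slc5a3, Slc6a6, Slc38a2 and Nfat5 in CPM (vertical axes, from 0) in the 20 libraries, by group. Points are libraries in replicate order and black bars are the mean and SD of 5 libraries. The male control libraries of Slc5a3, at 104 to 132 CPM, lie above all other libraries of that gene, while the groups of Slc6a6 and Nfat5 overlap throughout.

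The difference that chose Slc5a3 was a log2 fold change of 0.47 (SE 0.07), male minus female controls, a ratio of 1.39. It is given without a test and supports nothing here. In that contrast 0.747% of the 12988 genes were called at an adjusted p under 0.05 by edgeR's quasi-likelihood test. Within male controls the 3 libraries of 6.83 M to 13.2 M counts held 121 to 132 CPM and those of 26.1 M and 31.6 M held 109 and 104 CPM. In the same contrast 15.3% of all genes had an unadjusted p under 0.05. With lower values in male controls, this held for 9 of 11 striatal, 5 of 9 microglia and 3 of 8 endothelial markers, of which 1, the endothelial Cldn5, was called. With higher values it held for 4 of 12 adBNST neuron markers, of which 1, Tac2, was called, and with lower values for 1. Of those 12, 10 had a positive log2 fold change, and the list's median was 0.15. The summed level of the list went the other way. Its mean was lowest for male controls, at 3115 CPM (range 3037 to 3223), next to 3218 (3101 to 3416) for female controls. Penk, 1 of the 12, averaged 573 CPM for male and 773 CPM for female controls, a wider gap than between these mean sums. With stress the mean sum was 3197 CPM for females and 3251 for males. With the striatal marker score as a covariate the difference was 0.40, the lowest value over 30 other settings, and the highest was 0.52, without male control 5.

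The sex difference in stressed mice rests on libraries that played no part in the choice. Slc5a3 averaged 93.3 CPM in stressed males and 83.4 CPM in stressed females, a log2 fold change of 0.17 (SE 0.07, 95% interval 0.02 to 0.31). It did not pass: its adjusted p was 0.649 by edgeR's quasi-likelihood test, with an unadjusted p of 0.0262. Of the 4 measured members 0 were called there, by edgeR, DESeq2 or limma-voom, and 1, Slc5a3, had an unadjusted p under 0.05. Over all genes 0.077% were called and 7.06% had an unadjusted p under 0.05.

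Both stress contrasts of Slc5a3 hold control libraries that chose it, so they are described only. In males the log2 fold change was -0.35 (SE 0.07), stressed minus control, and the 5 stressed libraries (81.2 to 101 CPM) lay below the 5 controls (104 to 132 CPM). In females it was -0.04 (SE 0.07), with overlapping groups. The male minus the female stress effect was -0.30 (SE 0.10). With the striatal covariate the value in males was -0.26. Striatal markers moved the other way in the same mice: 11 of 11 had a positive log2 fold change with stress in males, with a median of 0.65, 10 of them at an unadjusted p under 0.05 and 0 called. Of the 12 adBNST neuron markers 9 had a negative value there, 5 of them at an unadjusted p under 0.05, and 3 a positive value, 1 at such a p. The list's median was -0.26 and 0 were called, while its mean sum was higher with stress (3251 CPM) than without (3115 CPM). Of that list, Penk averaged 815 CPM in stressed and 573 CPM in control males, a wider gap than between the mean sums. Over all genes 15.5% had an unadjusted p under 0.05. The part of these markers in the Slc5a3 value beyond the striatal covariate was not tested.

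Mrps6, which overlaps Slc5a3, had a higher mean in stressed than in control males, with overlapping groups. Its mean was 15.2 ± 1.15 CPM (SD, n = 5) for female controls and 16.2 ± 2.94 with stress, and 17.4 ± 1.49 for male controls and 18.5 ± 1.83 with stress. Stressed minus control males gave a log2 fold change of 0.11 (SE 0.10) for Mrps6 and -0.35 for Slc5a3. Male minus female controls gave 0.18 (SE 0.11) and 0.47. With the striatal covariate the values of Mrps6 were 0.27 with stress in males and 0.04 between controls. Between stressed males and females Mrps6 differed by 0.23 (SE 0.10, adjusted p 0.672 by edgeR's quasi-likelihood test).

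Slc38a2, the amino acid carrier, also had its highest mean in male controls. Male controls measured 127, 137, 137, 128 and 132 CPM for replicates 1 to 5, and female controls 104, 99.4, 113, 125 and 111 CPM. These groups did not overlap, although female control 4, the shallowest library at 2.71 M counts, was near the lowest male control. Stressed females measured 127, 128, 106, 117 and 96.5 CPM, and stressed males 118, 129, 113, 104 and 131 CPM. Both stressed groups overlap the controls of their sex.

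The control difference of Slc38a2 was 0.27 (SE 0.08) in log2, described without a test because it is the contrast of the choice. With stress, the log2 fold change of Slc38a2 was -0.15 in males (SE 0.08, 95% interval -0.31 to 0.004, adjusted p 0.339 by edgeR's quasi-likelihood test) and 0.07 in females (SE 0.08, interval -0.09 to 0.23, adjusted p 0.866). Neither passed. The male minus the female stress effect was -0.22 (SE 0.11) with an unadjusted p of 0.0499 and an adjusted p of 0.481. Between stressed males and females it was 0.05 (SE 0.08, interval -0.11 to 0.20). With the striatal covariate the value in males was -0.06.

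Slc6a6, the taurine carrier, had its lowest mean in male controls, the reverse of Slc5a3. Male controls measured 219, 184, 218, 199.8 and 180.0 CPM, and female controls 246, 249, 215, 216 and 246 CPM. The groups met between 215 and 219 CPM. Stressed females measured 214, 206, 216, 263 and 249.97 CPM, and stressed males 205, 216, 238, 183 and 241 CPM. All 4 groups overlap one another.

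The control difference of Slc6a6 was -0.23 (SE 0.08) in log2 and -0.12 with the striatal covariate, again without a test. Its stress effects were 0.12 in males (SE 0.08, interval -0.05 to 0.29, adjusted p 0.531 by edgeR's quasi-likelihood test) and -0.03 in females (SE 0.08, interval -0.20 to 0.14, adjusted p 0.975). Between stressed males and females it was -0.08 (SE 0.08, adjusted p 0.874). None passed, and with the striatal covariate the value in males was -0.01, on the other side of 0.

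Nfat5, the transcription factor itself, held nearly the same mean in each group. Its mean was 181 ± 10.4 CPM (SD, n = 5) for female controls and 176 ± 20.6 with stress, and 183 ± 20.96 for male controls and 172 ± 22.9 with stress. Single libraries ran from 138 CPM, in stressed male 4, to 209 CPM, in male control 3. The control difference was 0.01 (SE 0.09). Stress effects were -0.03 in females (interval -0.23 to 0.16, adjusted p 0.975 by edgeR's quasi-likelihood test) and -0.09 in males (interval -0.28 to 0.10, adjusted p 0.707), where the value was -0.018 without male stressed 4 and -0.14 without male control 5. Stressed males minus stressed females gave -0.04 (interval -0.23 to 0.15, adjusted p 0.963 by the same test).

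Counted over the members other than Slc5a3, 0 of 3 were called with stress in females, 0 of 3 with stress in males and 0 of 3 in the interaction, by edgeR, DESeq2 or limma-voom. At an unadjusted p under 0.05 the counts were 0, 0 and 1. Over all genes the called shares were 0% in females, 0.0077% in males and 0% in the interaction, and 7.51%, 15.5% and 10.4% had an unadjusted p under 0.05. With members this few, the counts are not above those shares in either stress contrast.

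**Figure D2:**
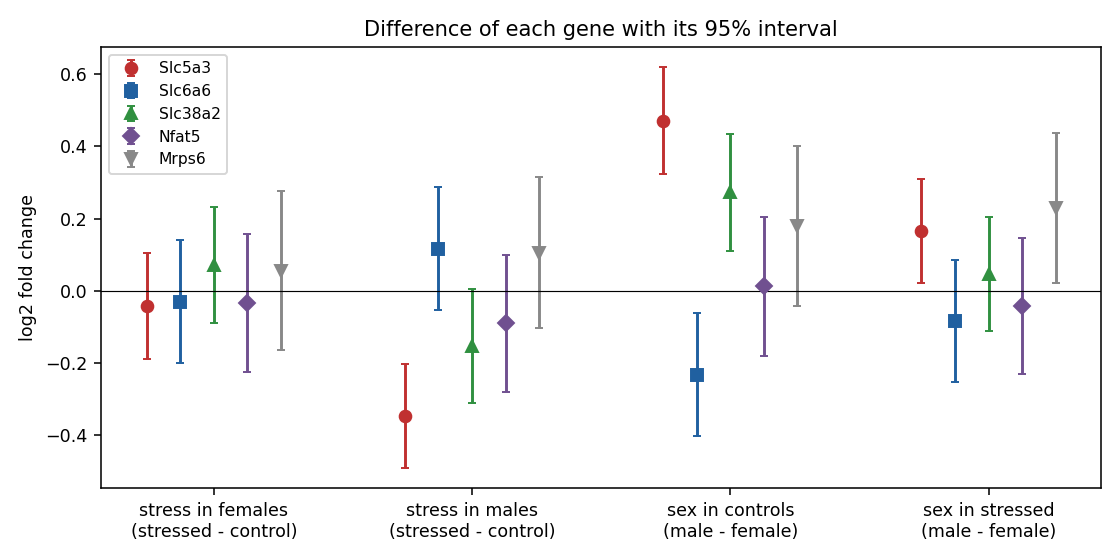
Log2 fold change (vertical axis) of the 4 measured members and of Mrps6 in 4 contrasts (stressed minus control, male minus female), with 95% intervals from the fit of all 20 libraries. Slc5a3 stands at 0.47 between control males and females, the contrast it was chosen on, at -0.35 with stress in males, and at 0.17 between stressed males and females.

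Per kilobase of exon (GENCODE M21), Slc6a6 was the most abundant member at 26.0 ± 2.82 CPM per kb over the 20 libraries (SD). It was followed by Slc38a2 at 13.5 ± 1.44, Nfat5 at 9.69 ± 0.997 and Slc5a3 at 8.75 ± 1.51 CPM per kb. The libraries of Slc6a6 (21.3 to 31.1) lay above all of Slc38a2 (10.9 to 15.5), while Nfat5 and Slc5a3 overlapped. In male controls the last places were exchanged, with 10.9 ± 1.18 for Slc5a3 and 9.97 ± 1.14 CPM per kb for Nfat5. The length was that of all annotated exons of a gene joined, and not of the transcripts expressed. Whether this order holds with transcript lengths was not tested. Over the 20 libraries, levels of Slc5a3 varied by 17.2% (coefficient of variation) and those of the other members by 10.3% to 10.8%.

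Members were also compared library by library, after each gene's group means were removed so that the control difference played no part. Of the 6 pairs, 1 had an adjusted permutation p under 0.05, that of Slc6a6 and Nfat5. Pearson's r was 0.77 (permutation p 0.0011, adjusted 0.0066 over 6 pairs) and Spearman's rho 0.77 (permutation p 0.00104, adjusted 0.00624). How many of the 12988 genes reach such an r with either gene was not computed, so whether this pair stands out among them is not known. Without the 2 libraries farthest from the median of Slc6a6, r was 0.72. In the 10 shallowest libraries r was 0.57, and in the 10 deepest 0.86, values added after seeing the data. Stressed male 4, at 183 CPM of Slc6a6 and 138 CPM of Nfat5, was the lowest of its group for both genes. Without that library r was 0.70, with an adjusted permutation p of 0.0398, the highest with 1 library left out.

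Scores of 3 glial marker lists had negative correlations with both genes. The astrocyte score had an r of -0.68 with Slc6a6 and -0.54 with Nfat5 within groups, the microglia score -0.40 and -0.61, and the oligodendrocyte score -0.51 and -0.44. With the astrocyte score removed, r between Slc6a6 and Nfat5 was 0.65, with the microglia score removed 0.72, and with the oligodendrocyte score removed 0.71. With log2 depth or any other marker score except that of adBNST neurons removed it was 0.77 to 0.82. Removal of the adBNST score was not run. Slc5a3 had an r of 0.17 with Nfat5 (adjusted permutation p 0.837) and of 0.24 with Slc38a2 (adjusted permutation p 0.837), so neither relation was detectable over 20 libraries.

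**Figure D3:**
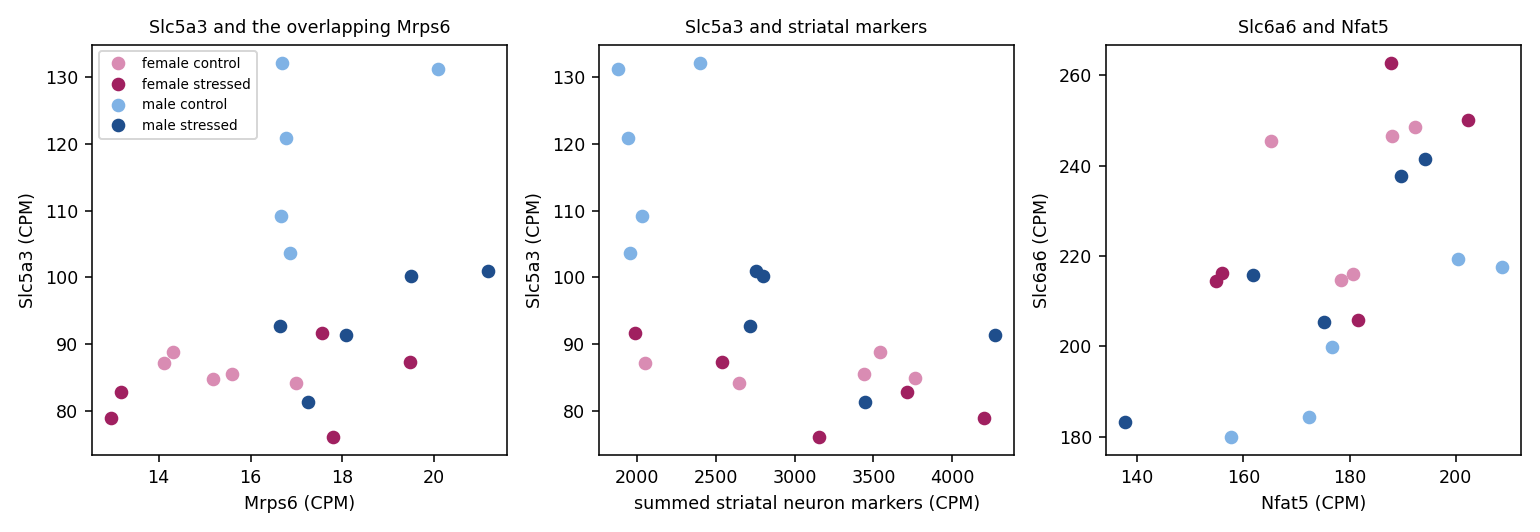
Pairs of values in CPM for each of the 20 libraries, coloured by group. Left, Slc5a3 against the overlapping Mrps6; middle, Slc5a3 against the summed striatal neuron markers; right, Slc6a6 against Nfat5. Male controls sit at 104 to 132 CPM of Slc5a3 and 1882 to 2404 CPM of striatal markers, and stressed male 4 holds 183 CPM of Slc6a6 and 138 CPM of Nfat5.

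A wider list of 53 osmotic pathway genes, none of them a member, was read in the same fit, and 44 had a row. With stress in females 0 of 44 were called by edgeR and by DESeq2. An unadjusted p under 0.05 was found for 7 (6 higher, 1 lower), which is 15.9% against 7.51% over all genes. With stress in males 0 were called by edgeR and 1, Sgk1, by DESeq2, which called 1.67% of all genes there. An unadjusted p under 0.05 was found for 11 (5 higher, 6 lower), or 25% against 15.5%. Between stressed males and females 0 were called by edgeR and by DESeq2, and 3 had an unadjusted p under 0.05, all higher in males, or 6.82% against 7.06%. The list's median log2 fold change was 0.02 in females, 0.02 in males and 0.01 between stressed sexes, against -0.001, -0.007 and -0.0003 over all genes. In the interaction 0 were called by edgeR and 1, Sgk1, by DESeq2, which called 0.169% of all genes there. An unadjusted p under 0.05 was found for 11 (4 higher, 7 lower), or 25% against 10.4%. Of the 7 lower, 5 were salt-induced genes described below, and the interaction also holds the control libraries.

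In the control contrast 5 of 44 pathway genes were called: 4 with higher and 1 with lower counts in males. The rule used that contrast, so the count is set beside the 0.747% called over all genes and nothing is read from it. The 4 higher genes came from the 6 measured genes known to be induced by high salt or through Nfat5. They were Sgk1, a kinase that regulates ion transport (1.06, SE 0.16, adjusted p 0.00162), the heat shock chaperones Hspa1a (1.24, adjusted p 0.00666) and Hspa1b (1.45, adjusted p 0.0265), and the chaperone Hsph1 (0.23, adjusted p 0.0476), all by edgeR's quasi-likelihood test. All 4 lie in gene groups for which earlier results of these data were known when the lists were fixed. Sgk1 is also known to be induced by glucocorticoids and the chaperones by heat. Hspa1a and Hspa1b are near-identical copies whose reads counting may have split wrongly. Both lay at low levels, below the stricter filter of at least 10 CPM in 5 libraries. For female controls the mean of Hspa1a was 2.38 ± 0.20 CPM and that of Hspa1b 1.84 ± 0.75. For male controls these means were 5.64 ± 1.09 and 5.61 ± 1.77 CPM, and the control groups did not overlap for either gene. Female control 4 held 6 counts of Hspa1a and 2 of Hspa1b. The lower gene was Lrrc8b, a subunit of the volume-regulated anion channel (-0.33, SE 0.08, adjusted p 0.0480).

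The count of 5 was 2 with the striatal covariate and 8 with the astrocyte covariate, while the calls over all genes went from 97 to 69 and 563. With 1 library left out it was 2 without female control 5 or male control 2, and 3 without female control 1, 2, 3 or 4, male control 1 or 3, female stressed 1 or 3, or male stressed 1. It reached 6 without female stressed 2 or 5 or male stressed 2. Hsph1 lost its call in 15 of 30 alternatives, Lrrc8b in 16 of 30, Hspa1b in 6 of 29 and Hspa1a in 1 of 29. Sgk1 was called in that contrast in each of the 30 other settings, with a highest adjusted p of 0.00940.

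Over the 6 measured salt-induced genes, the signs with stress differed between the sexes. In females 5 of 6 had a positive value with a median log2 fold change of 0.27, and in males 0 of 6 with a median of -0.15, against -0.001 and -0.007 over all genes. The interaction was negative for 6 of 6 with a median of -0.60, 5 of them at an unadjusted p under 0.05, which 10.4% of all genes had, and 0 called by edgeR. Between stressed males and females the median was 0.02. Hspa1b had the lowest p of the list in females (0.93, SE 0.31, adjusted p 0.570 by edgeR's quasi-likelihood test) and between stressed sexes (0.51, SE 0.26, adjusted p 0.715), where it was 0.17 without male stressed 4. Between controls 6 of 6 were higher in males, with a median of 0.65. Both stress contrasts and the interaction hold those control libraries, on which 4 of these genes were called, so these counts are description only.

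Sgk1 was, like Slc5a3, highest on average in male controls. Its mean was 59.1 ± 7.00 CPM (SD, n = 5) for female controls and 79.0 ± 14.0 with stress, and 122 ± 37.3 for male controls and 67.9 ± 7.69 with stress. Male controls ran from 74.1 to 178 CPM, so they overlapped both stressed groups, unlike those of Slc5a3. Within groups the genes had an r of -0.29. In males the log2 fold change of Sgk1 with stress was -0.84 (SE 0.16, adjusted p 0.0701 by edgeR's quasi-likelihood test), which did not pass, whereas DESeq2 gave an adjusted p of 0.00501 and the striatal covariate one of 0.388. It passed without male control 1 (adjusted p 0.0016), female stressed 2 (0.0233) or male stressed 5 (0.0348). The interaction was -1.27 (SE 0.23, adjusted p 0.0507), with adjusted p-values from 0.00114 to 0.146 over the settings, the lowest without male control 1 and the highest without female stressed 2. It also passed without female stressed 4 (adjusted p 0.0292).

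Of the 3 other osmolyte carriers measured (Slc2a13, Slc38a1 and the creatine carrier Slc6a8) 0 were called by edgeR in the 5 contrasts. In 3 of these contrasts 1 carrier had an unadjusted p under 0.05, which 7.06% to 15.5% of all genes had over the 5. Slc6a12 and Slc5a11, the betaine and second inositol carriers, were not analysed here. Slc2a13, which carries inositol with protons, had a mean of 225 ± 17.5 CPM for female controls and 211 ± 26.2 with stress, and of 189 ± 6.56 for male controls and 212 ± 17.4 with stress. Its stress effect was 0.16 in males (SE 0.07, adjusted p 0.295 by edgeR's quasi-likelihood test) and -0.09 in females (SE 0.07, adjusted p 0.803). With the striatal covariate the value in males was -0.01. Slc38a1, a relative of Slc38a2, had the lowest p of the carriers between stressed sexes (0.08, SE 0.06, adjusted p 0.809).

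Genes that make or break down osmolytes gave 0 calls by edgeR among 9 measured in each contrast, with 0 to 2 at an unadjusted p under 0.05 in either direction. Over all genes the share with such a p was 7.06% to 15.5% by contrast. Ado, an enzyme on the way from cysteamine to taurine, had a mean of 72.3 ± 6.03 CPM for female controls and 64.1 ± 3.67 with stress (a log2 fold change of -0.17, SE 0.07, adjusted p 0.608 by edgeR's quasi-likelihood test). Between stressed males and females it was 0.15 (SE 0.07, adjusted p 0.665). Cdo1, which starts taurine synthesis from cysteine, averaged 52.1 ± 3.09 CPM in male controls and 48.0 ± 2.29 in stressed males (-0.13, SE 0.05, adjusted p 0.214).

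Cell volume genes included 16 of 18 listed, with 1 called by edgeR, the lower Lrrc8b above, in the contrast where 0.747% of all genes were called. Lrrc8d was also called there by DESeq2, which called 1.91% of all genes. With the astrocyte or the oligodendrocyte covariate both Lrrc8d and Lrrc8a were called there. At an unadjusted p under 0.05 there were 3 higher and 2 lower with stress in males, and 2 higher and 2 lower between controls. There was 1 higher with stress in females, 1 higher between stressed sexes, and 2 higher and 1 lower in the interaction. Over all genes 15.5%, 15.3%, 7.51%, 7.06% and 10.4% had such a p, in the same order of contrasts. Lrrc8b had a mean of 134 ± 12.99 CPM for female controls and 120 ± 13.9 with stress, and of 106 ± 6.26 for male controls and 126 ± 9.55 with stress. Its stress effect in males was 0.24 (SE 0.08, adjusted p 0.129 by edgeR's quasi-likelihood test). That value was 0.080 with the striatal covariate, under which the control difference was -0.19 and no longer called (adjusted p 0.301). Lrrc8c, of the same channel, was 0.20 between stressed males and females (SE 0.08, adjusted p 0.628). The potassium-chloride cotransporter Slc12a4 was 0.17 with stress in females (SE 0.07, adjusted p 0.617). The astrocyte water channel Aqp4 and the sodium-potassium-chloride cotransporter Slc12a2 lay between -0.13 and 0.07 in the stress and sex contrasts, with adjusted p-values from 0.559 to 0.993.

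Genes upstream of Nfat5, among them kinases and adaptors that carry the tonicity signal, gave 0 calls by edgeR among 10 in each contrast. At most 1 had an unadjusted p under 0.05, which 7.06% to 15.5% of all genes had by contrast. The lowest p belonged to the kinase Map3k3 with stress in females (0.13, SE 0.09, adjusted p 0.745 by edgeR's quasi-likelihood test), to the scaffold Ccm2 with stress in males (0.24, SE 0.09, adjusted p 0.205), and to the anchoring protein Akap13 between stressed sexes (-0.13, SE 0.08, adjusted p 0.772). With the striatal covariate the value of Ccm2 was -0.002.

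**Figure D4:**
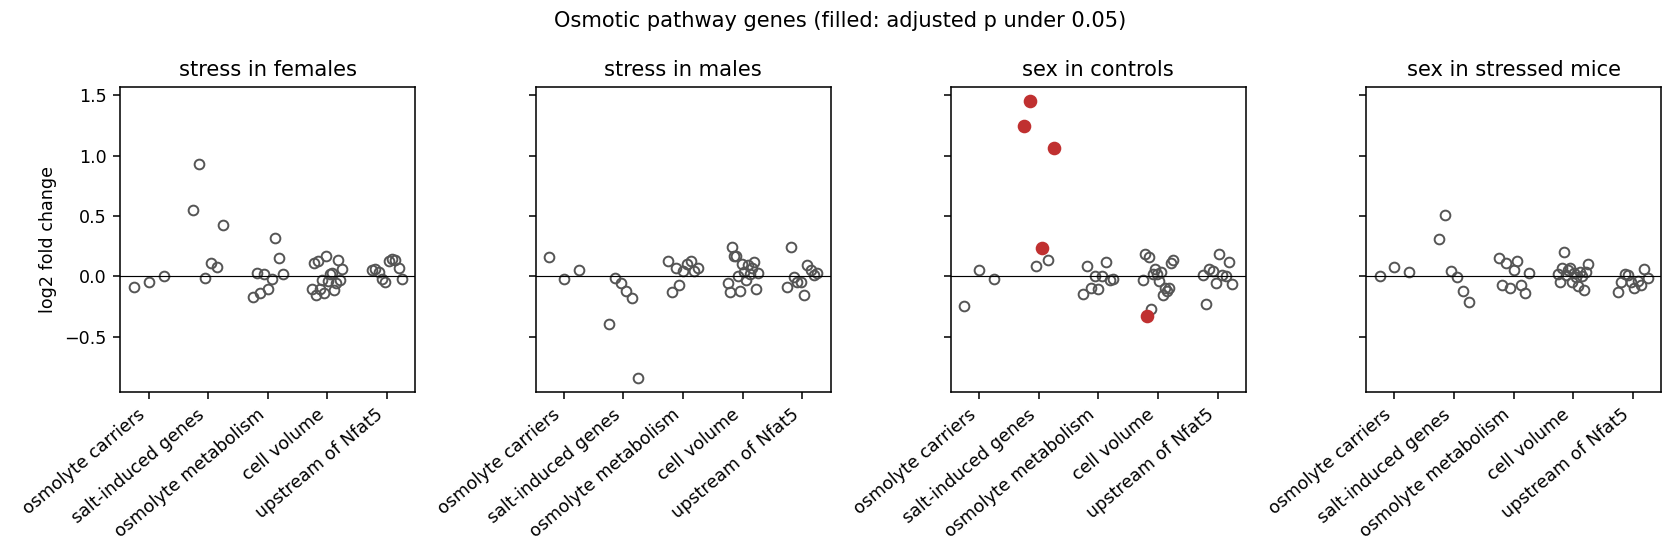
Log2 fold change (vertical axis) of the 44 measured pathway genes in 4 contrasts (stressed minus control, male minus female), by list. Open points did not pass and filled points had an adjusted p under 0.05. Filled points appear only in the control contrast, where the 4 salt-induced genes lie at 0.23 to 1.45 and Lrrc8b at -0.33.

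Genes whose pattern was most like that of Slc5a3 were sought over all 12988, by Pearson's r of log2 CPM over the 20 libraries, as a description of libraries that share depth, composition and groups. The 5 highest were Dpysl2, which encodes an axonal microtubule-binding protein (r 0.93), the zinc finger gene Zfp760 (0.87), Tmed8 (0.85), the peroxisomal import receptor Pex5 (0.84) and Prr5, a component of the mTOR complex (0.84). Dpysl2 averaged 222 ± 11.1 CPM in male controls, against 190 ± 5.42 for female controls, 193 ± 9.66 with stress in females and 198 ± 9.67 with stress in males, and its male controls (209 to 237 CPM) lay above all other libraries. Of the members, Slc38a2 ranked 342 (r 0.63), Nfat5 4796 (r 0.17) and Slc6a6 11712 (r -0.52), with Mrps6 at 1938 (r 0.41).

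With group means removed, the order was led by the co-chaperone Chordc1 (r 0.88), the cilium gene Cys1 (0.85), Trp53inp1 (0.82), Zfp760 (0.81) and the endoplasmic reticulum gene Lnpk (0.81). Zfp760 was on both lists. Slc38a2 ranked 3063 (r 0.24) and Slc6a6 7902 (r -0.08) on that measure.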

How the data were processed

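RNA of adBNST from pools of 3 mice was sequenced in 20 libraries. The authors deposited raw counts per gene symbol. STAR, featureCounts and the genome build mm10 are named in the submitters' processing notes, without versions. The annotation, the strand setting and any filter are not given in the sources used here, although no row total was under 1002. Coordinates are on GRCm38, the same build as mm10.

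Counts were fitted with edgeR 4.0.16 (R 4.3.3): TMM, filterByExpr, which kept 12988 genes, 1 mean for each of 4 groups, and the quasi-likelihood test, with Benjamini-Hochberg adjustment over all genes and a threshold of 0.05. The 5 contrasts were stress in each sex, sex in controls, sex in stressed mice and their interaction. Log2 CPM used a prior count of 2. Correlations used 100000 two-sided permutations within groups. The fit was also run on simulated counts with the same spread for every gene, which these data need not share, so nothing is read from that run.

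Alternatives were DESeq2 1.42.0, its size factors, limma-voom (limma 3.58.1), no filter, at least 10 CPM in 5 libraries, only the groups compared, a replicate block, 3 marker scores as covariates, and each library left out. The removal of depth or marker scores from the correlation of Slc6a6 and Nfat5, and its values by depth, were added after seeing the data.

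Members, lists and tests were chosen with earlier results of these data known. Named genes are the members, Mrps6, pathway genes called in any contrast, those with the lowest p of each of 5 lists in stress in females, stress in males and sex in stressed mice, and Sgk1, Aqp4 and Slc12a2. Over 9 marker lists (adBNST, striatal, thalamic and cortical neurons, astrocytes, oligodendrocytes, microglia, endothelium, and choroid plexus with ependyma), 2 genes were called, both between controls: Tac2 of the adBNST list, higher in males, and Cldn5 of the endothelial list, lower.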

Additional observations from a re-analysis of the deposited data

Results flagged for a closer look

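Mrps6 in male control 1, at 20.1 CPM, stood apart from the other 4 male controls, which lay between 16.7 and 16.9 CPM. Its gap to the nearest library was too large a share of the group's range by Dixon's test at the 95% level. It was 1 of 20 groups checked over Slc5a3, Slc6a6, Slc38a2, Nfat5 and Mrps6, and chance flags about 1 group in 20. Slc5a3 in the same library, at 131 CPM, lay beside male control 2 at 132 CPM.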

How the results depend on the processing

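No member was called in the alternatives run where a test was given: over 387 fits with an adjusted p, 0 were under 0.05, the lowest was 0.181 (Slc38a2, stress in males, without male stressed 5), and 9 had the opposite sign. The control difference of Slc5a3 kept its sign in 30 of 30 alternatives. Slc5a3 was chosen by that difference, so nothing is read from this.

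Counts of called pathway genes moved. Between controls the 5 became 3 with DESeq2's size factors in edgeR, 2 with a replicate block, 2 with the striatal and 8 with the astrocyte covariate, and 2 to 6 with 1 library left out. That count was 4 with limma-voom and with the stricter filter, 6 with DESeq2 and with only the groups compared, and 7 with the oligodendrocyte covariate. With stress in males the 0 became 1 with DESeq2, with the astrocyte covariate and with only the groups compared, and 0 to 1 with 1 library left out. In the interaction the 0 became 1 with size factors, DESeq2, the stricter filter and the astrocyte and oligodendrocyte covariates, and 0 to 1 with 1 library left out. In both contrasts the gene was Sgk1. The cause was not tested. What the replicate numbers share is not given in the sources used here, and deviations of same-numbered libraries had a mean r of -0.14 to -0.03. The replicate block ended the control calls of Hsph1 (adjusted p 0.0819), Lrrc8b (0.0611) and Hspa1b (0.0738) and changed no call of a member.

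Several small values changed sign. With the striatal covariate, stress in males gave -0.0079 for Slc6a6, -0.0073 for Slc2a13, -0.0019 for Ccm2, 0.15 for Aqp4 and 0.025 for Slc12a2, and the control contrast -0.063 for Slc12a2. With the astrocyte covariate Aqp4 was 0.020 between controls and Slc12a2 -0.012 in the interaction. With the oligodendrocyte covariate Aqp4 was 0.038 between controls, and the interaction was 0.010 for Nfat5, -0.032 for Aqp4 and -0.10 for Slc12a2. With limma-voom the interaction of Slc12a2 was -0.015.

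With 1 library left out, stress in females ran from -0.083 to 0.0077 for Slc6a6 and from -0.089 to 0.0075 for Nfat5. Between controls Aqp4 ran from -0.064 to 0.018. Between stressed sexes the ranges were -0.012 to 0.095 for Slc38a2, -0.092 to 0.030 for Nfat5, -0.048 to 0.12 for Aqp4 and -0.0081 to 0.13 for Slc12a2. In the interaction they were -0.11 to 0.017 for Nfat5 and -0.021 to 0.15 for Aqp4, and -0.072 to 0.067 for Slc12a2. The correlations within groups ran from -0.29 to 0.23 for Slc38a2 with Nfat5, from -0.0075 to 0.40 for Slc5a3 with Nfat5 and from -0.26 to 0.065 for Slc5a3 with Slc6a6. Depth from 2.71 M counts sets the precision of single libraries, and the intervals given are those of the fit.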
